A study of Mus musculus with 19 samples.

Results

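The mesendoderm specification genes are 10 regulators that mark the first cells of the embryo to leave the epiblast for mesoderm and endoderm. They were taken by name (T, Eomes, Mixl1, Gsc, Mesp1, Foxa2, Sox17, Gata4, Gata6 and Cer1), and their RNA was measured in 19 mouse libraries, 10 genes of the 54119 in the table of summed transcript values. The series asked whether TET3, an enzyme that oxidises methylated cytosine, is needed when mouse embryonic stem cells (mESC) become epiblast-like cells (EpiLC). Wild-type XX and Tet3-/- libraries both came from the XX line LF2 and the XY libraries from the wild-type line E14, so sex and cell line cannot be told apart. The mESC grew in N2B27 with a GSK3 inhibitor, a MEK1/2 inhibitor and LIF (3 XX, 3 XY and 4 Tet3-/- libraries). The EpiLC had been fed FGF5 and Activin A, with no LIF, for 5 days (3 XX, 3 XY and 3 Tet3-/- libraries). The Tet3-/- libraries carry mutant numbers, #1 to #4 in mESC and #1, #3 and #4 in EpiLC. The labels do not give the Tet3 allele, and they do not say whether replicates were separate cultures, so p-values measure the spread between these libraries, which may be technical.

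In the gastrulating mouse embryo, Nodal acting through SMAD2, SMAD3 and FOXH1 and Wnt acting through beta-catenin and TCF/LEF factors switch on the T-box genes T (brachyury) and Eomes in the primitive streak. Mixl1 and Gsc, homeobox genes of the streak, and Mesp1, a regulator of early mesoderm, follow, and Foxa2 and Sox17 mark the cells that form definitive endoderm. Cer1 encodes a secreted antagonist of Nodal and BMP. Gata4, Gata6 and Sox17 also act in primitive endoderm, an extraembryonic lineage, so these genes alone do not name a germ layer. Naive mESC are thought to hold most of these genes silent, and EpiLC correspond to epiblast before the streak forms. In bulk RNA, fewer cells expressing a gene and less RNA per cell cannot be told apart.

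The promoters shown here are those of the 3 genes whose levels parted the groups most clearly, T, Foxa2 and Cer1, and of Gsc, which took another course. Each is the 250 bases before a transcript start in RefSeq (GRCm38.p6), 5′ to 3′ on the gene's strand. Of the 10 genes, 6 had an entry that could be used (T, Eomes, Gsc, Mesp1, Foxa2 and Cer1). For Foxa2 the window is that of the transcript that gave 96.6% of Foxa2 TPM in XY EpiLC. Capitals mark matches to the letters searched on both strands, which were CTTTGAT and CTTTGAA for TCF/LEF, CAGAC for SMAD, GGTGTGA for T-box factors and TGTNNATT for FOXH1.
T, chr17:8434173-8434422, plus strand: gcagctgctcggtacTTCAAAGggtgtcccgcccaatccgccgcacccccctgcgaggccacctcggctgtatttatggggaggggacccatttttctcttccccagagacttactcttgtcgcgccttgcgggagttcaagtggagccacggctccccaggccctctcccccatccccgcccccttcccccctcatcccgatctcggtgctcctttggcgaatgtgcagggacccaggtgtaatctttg
Foxa2, chr2:148045949-148046198, minus strand: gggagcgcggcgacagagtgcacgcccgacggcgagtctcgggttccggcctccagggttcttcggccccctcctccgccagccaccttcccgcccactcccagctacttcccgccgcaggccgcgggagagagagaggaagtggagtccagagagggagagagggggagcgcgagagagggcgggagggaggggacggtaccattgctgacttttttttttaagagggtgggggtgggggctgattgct
Cer1, chr4:82885152-82885401, minus strand: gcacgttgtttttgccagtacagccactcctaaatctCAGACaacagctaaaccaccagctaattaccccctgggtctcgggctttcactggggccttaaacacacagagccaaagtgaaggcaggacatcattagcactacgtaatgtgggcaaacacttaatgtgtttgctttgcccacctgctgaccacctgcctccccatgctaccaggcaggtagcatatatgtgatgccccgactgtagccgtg
Gsc, chr12:104473237-104473486, minus strand: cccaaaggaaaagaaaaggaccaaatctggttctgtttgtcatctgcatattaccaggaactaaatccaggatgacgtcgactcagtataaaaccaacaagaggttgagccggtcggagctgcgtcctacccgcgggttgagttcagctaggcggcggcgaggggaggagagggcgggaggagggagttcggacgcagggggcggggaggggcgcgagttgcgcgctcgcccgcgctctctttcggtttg

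The T window held CTTTGAA, on the minus strand, with its far end 235 bases before the start. The Cer1 window held CAGAC 213 bases before the start. The Foxa2 and Gsc windows held none of the searched letters. In the Mesp1 window, of a gene that stayed near 0 in every library, CTTTGAT lay 31, CTTTGAA 73 and CAGAC 117 bases before the start. Of 32851 promoters in the table, 3.21% held CTTTGAT, 4.46% CTTTGAA, 42.2% CAGAC, 3.33% GGTGTGA and 10.9% TGTNNATT. CTTTGAA was added to the search after the expression values had been seen. These matches are a description of short windows and not of sites bound in these cells.

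Values are TPM, a length-normalised share of all transcripts in a library, summed over the transcripts of a gene. Depth is not kept in TPM and is unknown. Genes with at least 1 TPM in at least 3 libraries were tested, 14972 in all. T, Eomes, Gsc, Foxa2, Gata6 and Cer1 were among them, 6 of the 10. Mixl1 reached 1 TPM in 1 library, Sox17 and Gata4 in 2 each and Mesp1 in none, so these 4 are given by their levels only. Fold changes were computed from log2(TPM + 1), where the added 1 shrinks changes of genes near 0, and a gene was called at an adjusted p under 0.05 in limma's test over all 19 libraries with Benjamini-Hochberg adjustment.

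Tet3 RNA did not separate Tet3-/- from XX libraries on TPM, with overlapping ranges in mESC (0.532 to 0.916 TPM against 0.536 to 1.06) and EpiLC (0.693 to 1.42 TPM against 1.21 to 1.90), and the labels do not say which part of the gene was deleted. After scaling, described next, the EpiLC ranges no longer overlapped (1.01 to 1.26 against 1.37 to 1.89). Of 8 naive markers, 8 fell in each of the 3 transitions. Of 8 formative markers 6, 8 and 6 rose in XX, XY and Tet3-/-, while 1, Otx2, fell in XX. Of all tested genes 12.2%, 9.36% and 21.5% fell and 19.2%, 41.1% and 13.6% rose in these transitions. One library stood apart, the EpiLC of mutant #3, and results that rest on it are given with and without both mutant #3 libraries. The median fold change of all tested genes was 0.54 in the XY transition, -0.59 for XX against XY in EpiLC and between -0.40 and 0.19 in the other 7 comparisons, and scaling by the median of ratios brought it within 0.05 of 0 in each. Of the genes called for XX against XY in EpiLC, 11.1% were higher in XX as deposited and 54.2% after scaling. In the XY transition 81.5% were higher in EpiLC, and 48.2% after scaling. The share of higher calls also moved in the XX transition (61.2% to 46.0%), in Tet3-/- against XX (82.2% to 48.4% in mESC, 11.2% to 40.5% in EpiLC), in XX against XY mESC (45.4% to 59.0%) and in both differences of transitions (0% to 37.6% for Tet3-/- minus XX and 22.5% to 46.9% for XX minus XY).

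T, the T-box factor of the streak and notochord (chr17:8434423-8442496, plus strand, GRCm38), separated the XY from the XX cells in both states. In XX mESC it was at 0.0466, 0.0602 and 0.0338 TPM, and in XY mESC at 4.75, 7.64 and 7.81 TPM. In XX EpiLC it was at 0.908, 0.497 and 0.974 TPM, and in XY EpiLC at 17.3, 25.3 and 27.3 TPM. No XX library reached the lowest XY library of the same state. The mean of XY EpiLC was 29.4 times that of XX EpiLC, or 17.1 times after scaling. The log2 difference, XX minus XY, was -3.75 in EpiLC (SE 0.905, limma adjusted p 0.0038) and -2.86 in mESC (SE 0.905, limma adjusted p 0.0413). The mESC call was lost when any 1 of the 6 libraries was left out (limma adjusted p 0.0556 to 0.121), while without mutant #3 its adjusted p was 1.92e-07. The spread of each gene was estimated over all 6 groups. Mutant #3 therefore entered the SE here, though it is in neither group compared (0.905 with it and 0.212 without). From mESC to EpiLC the log2 fold change was 1.65 in XY (SE 0.905, limma adjusted p 0.134) and 0.77 in XX (SE 0.905, limma adjusted p 0.582). Both were called without mutant #3, with the same fold changes, SE 0.212 and limma adjusted p 7.1e-06 and 0.00964. After scaling the XY change was 0.96. The longest annotated transcript gave 57.8% of T TPM in XY EpiLC and 59.2% in XY mESC.

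Eomes, the other T-box gene, needed for mesoderm exit and endoderm (chr9:118478212-118486132, plus strand), was present at a low level in every group. It was at 0.513, 0.377 and 0.662 TPM in XX mESC and at 1.94, 2.43 and 2.12 TPM in XX EpiLC, with no overlap. XY libraries had 2.52, 1.27 and 3.81 TPM in mESC and 3.92, 4.92 and 5.10 TPM in EpiLC, where only the highest mESC library came near the lowest EpiLC library. After scaling the XY groups overlapped, at 1.7 to 2.8 in mESC and 2.76 to 2.90 in EpiLC. The XX change of 1.06 (SE 0.458, limma adjusted p 0.0903) was called without mutant #3 (limma adjusted p 0.000749). The XY change of 0.74 (SE 0.458, limma adjusted p 0.187) was also called without mutant #3 (limma adjusted p 0.00715). With scaling as well, the XY change was 0.19 and was not called (limma adjusted p 0.297). The difference between XX and XY was not called over all libraries, at -1.16 in mESC (SE 0.458, limma adjusted p 0.105) and -0.83 in EpiLC (SE 0.458, limma adjusted p 0.136). Without mutant #3 both were called (limma adjusted p 0.000979 and 0.00427), but with scaling as well the EpiLC difference was -0.24 (limma adjusted p 0.211). The antisense RNA Gm33460 overlaps the 3′ part of Eomes. Like Eomes, it had a higher mean in EpiLC than in mESC, at 1.06 against 0.0347 TPM in XX and 0.797 against 0.105 TPM in XY. Its XX mean lay below its XY mean in mESC, as for Eomes, and above it in EpiLC, unlike Eomes. In the EpiLC of mutant #3, where Eomes was at 17.4 TPM, Gm33460 was at 0.568 TPM, against 1.17 and 0.590 TPM in #1 and #4.

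Mixl1, a homeobox gene of the streak (chr1:180693043-180697034, minus strand), was at 0.157, 0.303 and 0.291 TPM in XY EpiLC. No other library except the EpiLC of mutant #3 was above 0.139 TPM. Mesp1 (chr7:79792241-79793788, minus strand) was at most 0.214 TPM in any library.

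Gsc, the homeobox gene of the organizer and anterior streak (chr12:104471209-104473330, minus strand), ran the other way from T between XX and XY mESC and in the XX transition. It was at 1.85, 5.07 and 2.69 TPM in XX mESC, and at 2.55, 3.69, 4.74 and 2.71 TPM in Tet3-/- mESC #1 to #4. XY mESC had 0.496, 0.151 and 0.389 TPM, below every mESC library of the LF2 line. XX EpiLC had 0.0221, 0.0501 and 0.0450 TPM, so that the XX mESC mean was 82.0 times the XX EpiLC mean. XY EpiLC had 0.777, 0.687 and 0.628 TPM, above every XX EpiLC library, as for T. That log2 difference, XX minus XY, of -0.71 was not called over all libraries (limma adjusted p 0.2). Without mutant #3 it was (limma adjusted p 0.0107). Gsc fell by 1.94 in the XX transition (SE 0.457, limma adjusted p 0.00281) and had a log2 fold change of 0.34 in the XY transition (SE 0.457, limma adjusted p 0.544). XX mESC were higher than XY mESC by 1.58 (SE 0.457, limma adjusted p 0.0255). That call was lost without XX mESC replicate 2 or 3 or any 1 XY library (limma adjusted p 0.0547 to 0.0725) and had an adjusted p of 6.37e-05 without mutant #3. The bidirectional transcript Gm10000, which starts 1 base from Gsc, was at 0.145 TPM in XX mESC and 0.0122 TPM in XX EpiLC.

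**Figure D1:**
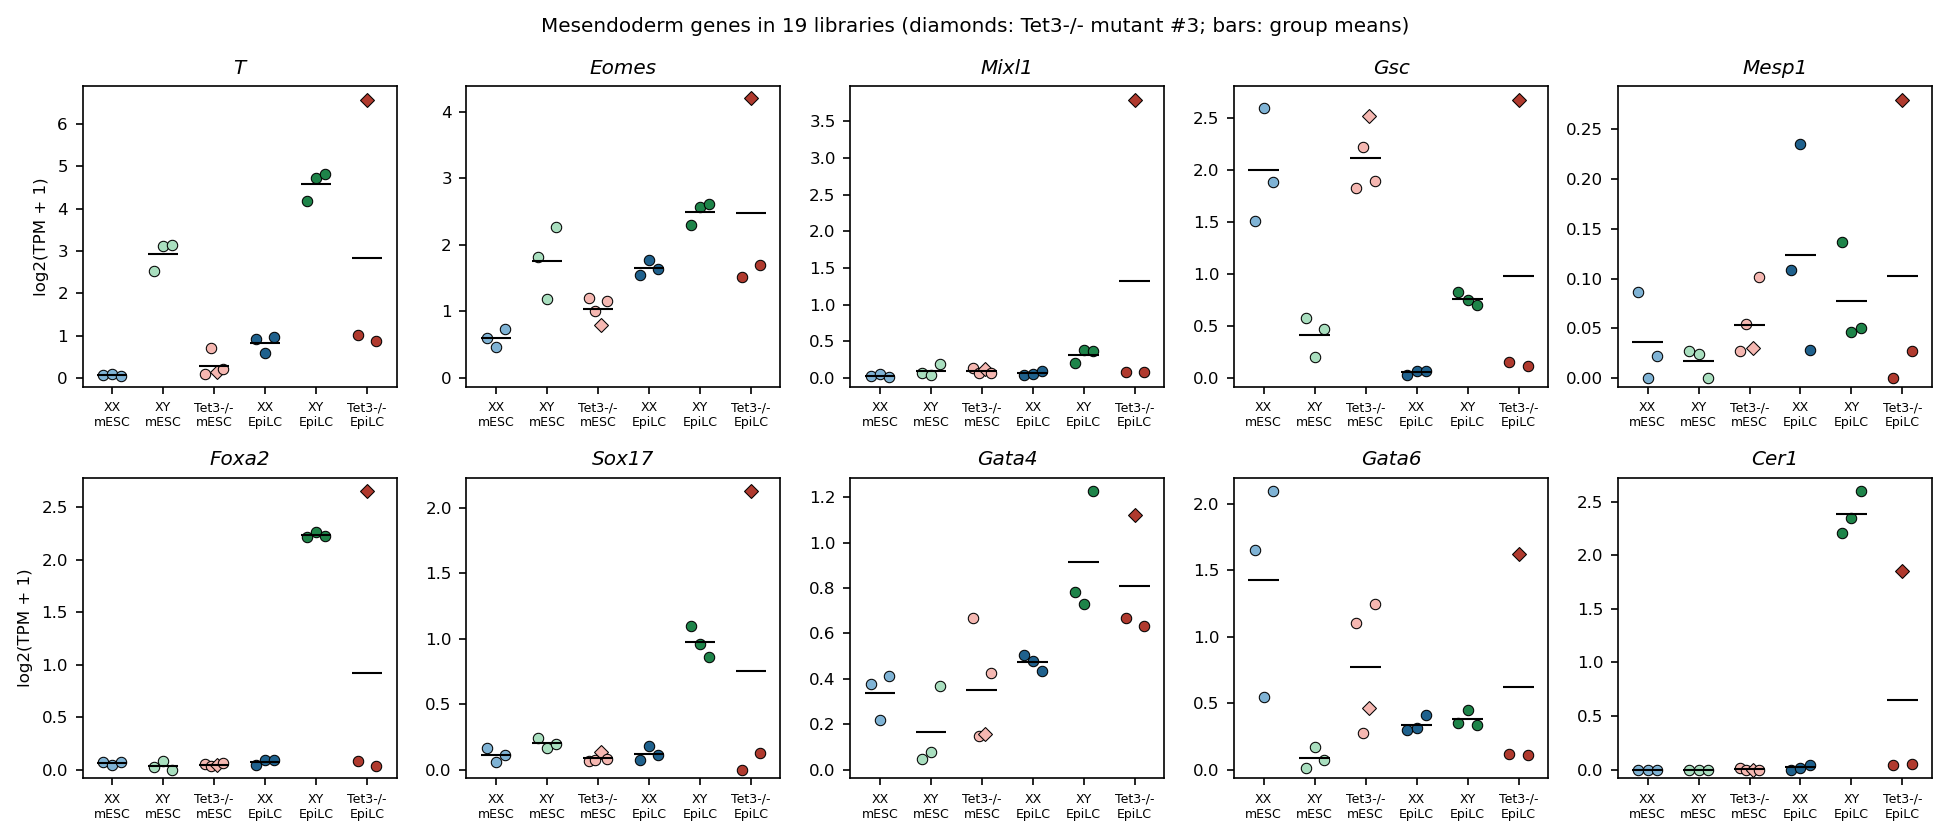
Level of each of the 10 genes as log2(TPM + 1), on a scale of its own, in the 6 groups; points are libraries, diamonds are mutant #3 and bars are group means. T, Foxa2, Sox17 and Cer1 are high in the 3 XY EpiLC libraries and in mutant #3, while Gsc and Gata6 are highest among LF2 mESC and in mutant #3.

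Foxa2, a pioneer factor of definitive endoderm and notochord (chr2:148042877-148046969, minus strand), was at 3.64, 3.80 and 3.67 TPM in XY EpiLC. XX EpiLC had 0.0279, 0.0643 and 0.0667 TPM, and no mESC library of any genotype exceeded 0.0575 TPM. The XY transition gave a rise of 2.20 (SE 0.419, limma adjusted p 0.000279), and XX EpiLC were lower than XY EpiLC by -2.16 (SE 0.419, limma adjusted p 0.000756). Scaling left both calls, at 1.67 and -1.64. The transcript that starts farthest upstream was listed at 0 in all 19 libraries. The non-coding RNA 9030622O22Rik, 2674 bases from Foxa2, was at 0.561 TPM on average in XY EpiLC and at 0.00563 TPM in XX EpiLC.

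Sox17, an endoderm factor that also marks primitive endoderm (chr1:4490931-4497354, minus strand), was at 1.14, 0.946 and 0.817 TPM in XY EpiLC while XX EpiLC did not exceed 0.132 TPM. The highest mESC library was an XY library at 0.184 TPM. Gata4, an endoderm and heart factor (chr14:63198922-63271692, minus strand), was low throughout, with 0.719, 0.659 and 1.34 TPM in XY EpiLC against 0.420, 0.393 and 0.353 TPM in XX EpiLC. The 2 groups did not overlap on TPM, but after scaling they did, with XY at 0.382 to 0.764 and XX at 0.342 to 0.476.

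Cer1, the secreted antagonist (chr4:82881751-82885148, minus strand), was listed at 0 in all XX and XY mESC libraries. XY EpiLC had 3.61, 4.09 and 5.04 TPM and XX EpiLC 0, 0.0113 and 0.0301 TPM. The rise in XY was 2.38 (SE 0.305, limma adjusted p 3.76e-06), and XX EpiLC were lower than XY EpiLC by -2.36 (SE 0.305, limma adjusted p 1.38e-05). After scaling these were 1.84 and -1.82 and stayed called.

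Gata6, a factor of primitive endoderm and of cardiac mesoderm, lies on chromosome 18 at 11052064 to 11085635, plus strand. It was at 2.15, 0.459 and 3.28 TPM in XX mESC and at 0.0102, 0.123 and 0.0486 TPM in XY mESC. In Tet3-/- mESC it was at 1.16, 0.210, 0.379 and 1.37 TPM, so the LF2 mESC libraries varied widely but all lay above the XY libraries. In EpiLC it was between 0.228 and 0.330 TPM in XX and between 0.265 and 0.361 TPM in XY. Gata6 fell by 1.09 in the XX transition (SE 0.374, limma adjusted p 0.0322) and was higher in XX than in XY mESC by 1.35 (SE 0.374, limma adjusted p 0.0201). The transition call was lost without XX mESC replicate 1 or 3 or any 1 XX EpiLC library (limma adjusted p 0.0668 to 0.174), with no filter on low genes (0.0963) and with a pseudocount of 0.1 (0.0503). The mESC call was lost without XX replicate 1 or 3 or XY replicate 1 or 3 (limma adjusted p 0.0604 to 0.126).

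Dab2, which marks primitive endoderm, moved with Gata6 in XX mESC, at 2.70, 0.521 and 4.78 TPM in replicates 1 to 3, and was higher in XX than in XY mESC by 1.47 (limma adjusted p 0.0161). Of the 12 primitive and visceral endoderm markers, 5 could be tested and Dab2 was the 1 called there, where 14.2% of all tested genes were called. The summed level of the 12 was 32.1 to 60.3 TPM in XX and 39.8 to 66.2 TPM in XY mESC, and their part in the Gata6 difference was not tested. Most of that sum was Sparc, at 16.3 to 47.6 TPM over the 6 libraries, and Lama1, at 8.68 to 17.2 TPM. Of the others, Lamb1 was at 0.741 to 3.74 TPM, and Sox7, Pdgfra, Col4a1, Cubn, Amn, Ttr, Apoa1 and Afp were each at most 0.769 TPM in these mESC. Among XX mESC, replicate 2 was the lowest in Gata6 and Dab2 and the highest in Gsc.

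Set against all tested genes, the counts of called members were as follows. In the XX transition 2 of 6 were called, both lower, where 31.3% of all tested genes were called. In the XY transition 2 of 6 were called, both higher, against a background of 50.5%. For XX against XY, 3 of 6 were called in mESC, where the background was 14.2%, and 3 of 6 in EpiLC, where it was 47.2%. The share in EpiLC is near that of all genes. Foxa2 and Cer1 reached the filter in 4 libraries each, the 3 of XY EpiLC and mutant #3, so they were tested through the groups where they are high. This also holds for the members called in mESC. T reached the filter in 8 libraries, none of them wild-type XX, and Gsc in 8 and Gata6 in 5, none of them XY. These counts can therefore not be weighed against the share of all genes. Eomes (-0.83), Gsc (-0.71) and Gata6 (-0.04), the members that were not called in EpiLC, lay nearer to the median of all tested genes, -0.59. Without mutant #3 the counts were 4 of 6 in the XX transition (background 36.1%), 4 of 6 in the XY transition (56.5%), 4 of 6 for XX against XY in mESC (19%) and 5 of 6 in EpiLC (55.8%).

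**Figure D2:**
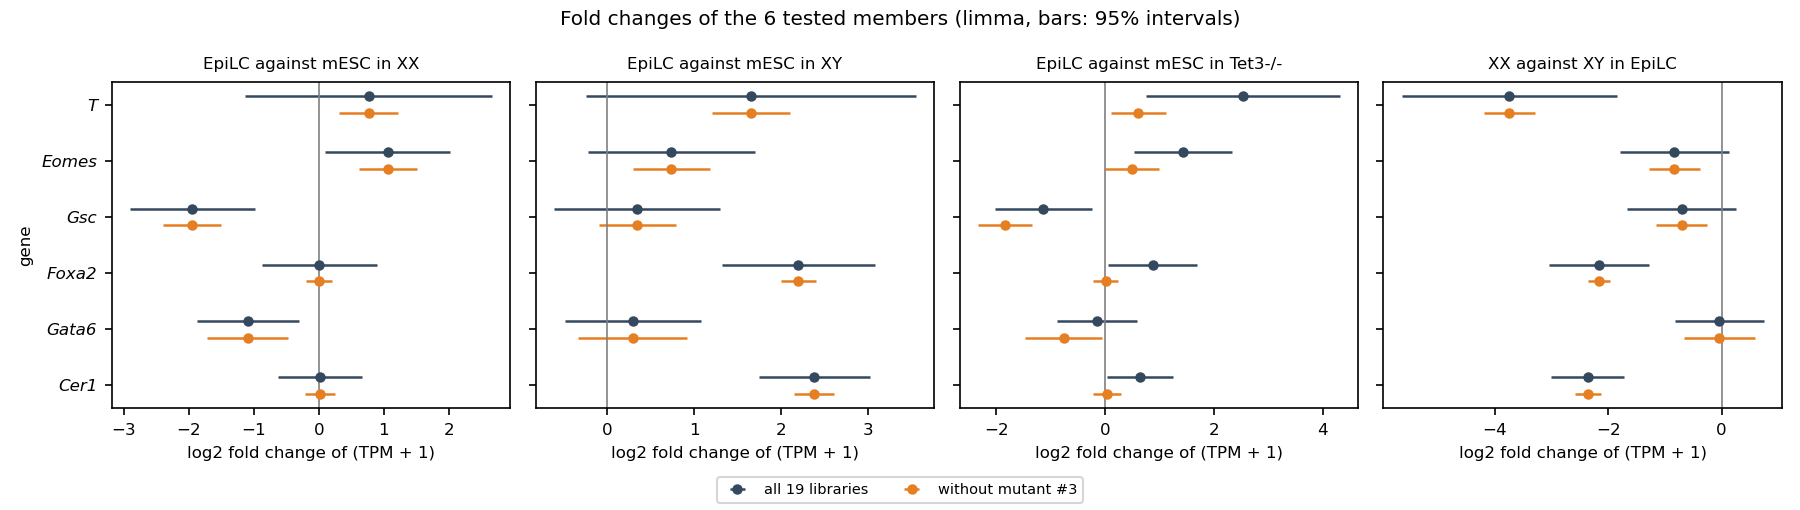
Log2 fold change of TPM + 1 for the 6 tested genes in 4 comparisons, from limma over all 19 libraries (dark) and without both libraries of mutant #3 (orange); bars are 95% intervals. The estimates for XX and XY are the same in both fits and the intervals are narrower without mutant #3, whereas the Tet3-/- change of T moves from 2.54 to 0.61.

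Whether a member changed differently in XX and in XY was tested as an interaction. It was called for 3 of the 6 members, where 16.0% of all tested genes were called. Foxa2 and Cer1 passed the filter only through XY EpiLC and mutant #3. Counts of members here can therefore not be weighed against the share of all genes. Gsc differed by -2.29 (SE 0.646, limma adjusted p 0.021), Foxa2 by -2.19 (SE 0.592, limma adjusted p 0.0163) and Cer1 by -2.36 (SE 0.432, limma adjusted p 0.000965), XX minus XY. The Gsc call was lost without XX mESC replicate 2 (limma adjusted p 0.0536). For T the difference was -0.89 (SE 1.28, limma adjusted p 0.673), with XY cells starting from a level of T already above that of XX EpiLC. Without mutant #3, T and Gata6 were called as well, 5 of 6 against a background of 22.2%. The T difference was then -0.89 (limma adjusted p 0.0441), but -0.18 after scaling as well (limma adjusted p 0.692).

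In Tet3-/- against XX mESC no tested member was called. limma called 0 of 6 with 0 of 6 at an unadjusted p under 0.05, and the background was 0.601%. T was at 0.0736, 0.626, 0.0958 and 0.163 TPM in mutants #1 to #4, all above the highest XX library, with a log2 difference of 0.22 (SE 0.847, limma adjusted p 0.94). Eomes was at 1.29, 1.00, 0.732 and 1.23 TPM, also above every XX mESC library on TPM but not after scaling (log2 difference 0.44, SE 0.428, limma adjusted p 0.789). Without mutant #3 the count was 0 of 6, with 1 of 6 at an unadjusted p under 0.05 and a background of 1.47%.

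In Tet3-/- EpiLC the 3 mutants did not behave alike. Mutants #1 and #4 had T at 1.03 and 0.843 TPM, close to the XX range, and mutant #3 had 94.3 TPM, the highest T level of the 19 libraries. Eomes was at 1.87 and 2.26 TPM in #1 and #4 and at 17.4 TPM in #3. Mixl1 was at 0.0588 and 0.0637 TPM against 12.9 TPM in #3. Gsc was at 0.116 and 0.0849 TPM against 5.41 TPM. Mutant #3 was the highest library of the series in each of these 4 genes on TPM. After scaling this held for T, Eomes and Mixl1, whereas Gsc was at 4.12 in #3, 4.89 in the mESC of mutant #3 and 5.07 in XX mESC replicate 2.

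The endoderm genes showed the same split. Foxa2 was at 0.0589 and 0.0257 TPM in #1 and #4 and at 5.27 TPM in #3, and Sox17 at 0 and 0.0935 TPM against 3.37 TPM. Cer1 was at 0.0271 and 0.0349 TPM in #1 and #4 and at 2.60 TPM in #3, below the XY EpiLC range. Gata6 was at 0.0865 and 0.0804 TPM and at 2.09 TPM. Gata4 was at 0.587 and 0.553 TPM and at 1.18 TPM, and Mesp1 was at 0 and 0.0187 TPM and at 0.214 TPM. The ratio of #3 to the mean of #1 and #4 was 100.7 for T, 210.2 for Mixl1, 8.42 for Eomes, 53.7 for Gsc and 2.06 for Gata4, the last of which was 1.16 after scaling. Against the mean of XY EpiLC, mutant #3 had 4.04 times as much T, 51.4 times as much Mixl1 and 7.75 times as much Gsc, but 1.42 times as much Foxa2 and 0.612 times as much Cer1. The mESC library of mutant #3 was not high in T (0.0958 TPM), Mixl1 (0.0875 TPM) or Foxa2 (0.0289 TPM).

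**Figure D3:**
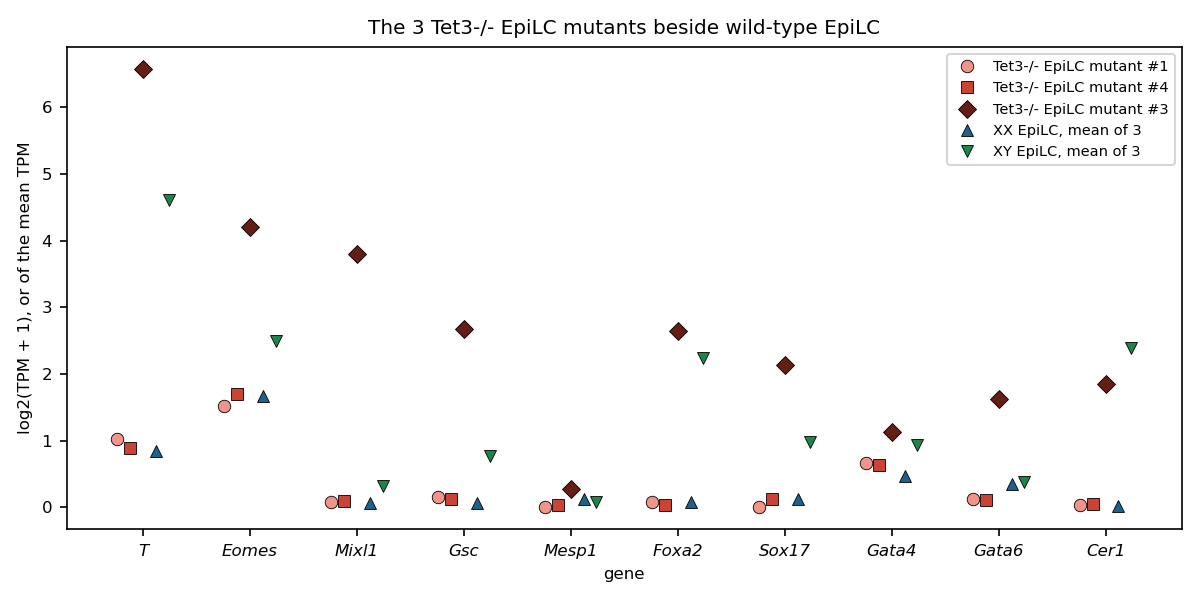
Levels of the 10 genes in each Tet3-/- EpiLC library, as log2(TPM + 1), beside the log2 of the mean TPM + 1 of the 3 XX and the 3 XY EpiLC libraries. Mutant #3 lies above the mean of mutants #1 and #4 for every gene, by 5.62 for T and 0.27 for Mesp1.

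Since #3 is a single library, no test was made of it. Of the 14972 tested genes, 27.3% were higher in #3 than in the mean of #1 and #4 by at least 1 on the log2 scale, and the median gene was higher by 0.66. All 6 tested members were, with a median of 2.56. After scaling, 564 of the tested genes passed that limit and the median gene was at 0.04, while the 6 members all passed it, with a median of 2.04. Among tested genes, 0.0134% were at least as far above #1 and #4 as T, and 6.56% at least as far above as Gata6. The members were chosen with earlier results of these data known, so these counts and shares are a description and not a test.

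Markers of other cells were read in the same library. Mutant #3 was higher by at least 1 in 3 of 8 naive markers, 5 of 8 formative markers, 1 of 5 tested primitive or visceral endoderm markers, 2 of 5 tested trophoblast markers and 1 of 1 tested neural marker, Nes. It was lower by at least 1 in none of them. Of all tested genes, 27.3% were higher by that much. After scaling those counts were 0, 3, 0, 1 and 0, where 564 of the 14972 tested genes passed that limit. Summed naive markers were at 31.8 TPM in #3, at 10.3 and 12.7 TPM in #1 and #4 and at 42.7 to 48.8 TPM in XX EpiLC. Summed primitive endoderm markers were at 224.1 TPM in #3, against 183 and 132.9 TPM, and Ttr and Afp were at 0.0182 and 0 TPM. The Y-linked gene Eif2s3y was at 0 in all 3 Tet3-/- EpiLC libraries and at 44.5 TPM or more in XY EpiLC. The source of the T RNA in #3 was not tested.

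Across the 3 mutants, T had a mean of 32.0 ± 53.9 TPM (SD, n = 3). The Tet3-/- transition called 3 of 6 members, with a background of 35.1%. T changed by 2.54 (SE 0.847, limma adjusted p 0.0256), Eomes by 1.44 (SE 0.428, limma adjusted p 0.0134) and Gsc by -1.13 (SE 0.427, limma adjusted p 0.047). Without the EpiLC library of #3 alone, T and Eomes were still called, at 0.66 and 0.57 (limma adjusted p 0.022 and 0.0451). Without both mutant #3 libraries 1 of 6 was called, with a background of 39.5%. Gsc then fell by 1.84 (limma adjusted p 1.18e-05), and T and Eomes had changes of 0.61 and 0.49 (limma adjusted p 0.0517 and 0.107). On scaled values without mutant #3, T and Eomes were called at 0.83 and 0.80 (limma adjusted p 0.00914 and 0.000967), beside scaled XX changes of 0.78 and 0.97. The T call was also lost without mESC library #1 or #3 (limma adjusted p 0.0501 and 0.0515), and the Gsc call without any 1 of the 4 mESC libraries or without EpiLC library #1 or #4 (limma adjusted p 0.0519 to 0.276).

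Against XX EpiLC, Tet3-/- EpiLC had no called member. limma called 0 of 6 with 1 of 6, T, at an unadjusted p under 0.05, and the background was 1.08%. The difference for T was 1.99 (SE 0.905, limma adjusted p 0.48) and, without mutant #3, 0.12 (SE 0.237, limma adjusted p 0.764). Without mutant #3 the other 5 members lay between -0.22 and 0.08, with 0 of 6 called, 0 of 6 at an unadjusted p under 0.05 and a background of 1.68%. The difference between the Tet3-/- and XX transitions was called for 0 of 6 members in limma, with 0 of 6 at an unadjusted p under 0.05 and a background of 0.174%. Without mutant #3 these counts were the same and the background was 0.781%.

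The order of the group means followed these patterns. For T it ran from Tet3-/- EpiLC (32.0 TPM) through XY EpiLC (23.3), XY mESC (6.73), XX EpiLC (0.793) and Tet3-/- mESC (0.239) to XX mESC (0.0469). Tet3-/- and XY EpiLC overlapped, as did XX EpiLC and Tet3-/- mESC. For Gsc it ran from Tet3-/- mESC (3.42 TPM), through XX mESC (3.20), Tet3-/- EpiLC (1.87), XY EpiLC (0.697) and XY mESC (0.345) to XX EpiLC (0.0391). Each of the first 3 overlapped the next in this order, and the last 3 were apart from one another on TPM, while XY EpiLC and XY mESC overlapped after scaling. For Cer1, XY EpiLC (4.25 TPM) stood apart from Tet3-/- EpiLC (0.887).

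Across the 19 libraries, Foxa2 and Cer1 ran most closely together, with a Pearson's r of log2(TPM + 1) of 0.977 (0.997 in the 18 libraries other than the EpiLC of mutant #3). T and Eomes had an r of 0.891 (0.838 without that library), Gsc and Gata6 of 0.600 (0.526) and T and Gsc of -0.108 (-0.439). The points share cell line and culture state, so these values only describe how the libraries were ordered. Among 14806 tested genes with a mean of at least 1 TPM in a group, the 3 with the highest r to T included Sp8 (0.975), a zinc finger factor related to Sp5, and Dkk1 (0.945), a Wnt antagonist. For Foxa2 they were Fgf8 (0.996), a growth factor of the streak, Alox15 (0.991), a lipoxygenase, and Spink1 (0.989). For Cer1 they were St6gal2 (0.993), Shc4 (0.991) and Rspo3 (0.987), a Wnt agonist. For Eomes they were Socs5 (0.956), Dtx3l (0.952) and Fjx1 (0.952), for Gsc Cmtr2 (0.923), Rfk (0.916) and Gm45351 (0.901), and for Gata6 Ninj2 (0.945), Fndc1 (0.869) and Vamp5 (0.866). These places moved when the EpiLC of mutant #3 was left out, with Dtx3l then at rank 124, Fjx1 at 110, Gm45351 at 103 and Fndc1 at 61, although r was still 0.854 or more for each gene named here.

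Beside the members, 20 further genes of the streak and nascent mesoderm were read, of which 9 were tested. In the XX transition 4 rose and 0 fell (median of the 9 tested 0.42, against 0.14 for all genes). In the XY transition 5 rose and 3 fell (1.21 against 0.54). Of all tested genes 19.2% rose and 12.2% fell in XX, and 41.1% rose and 9.36% fell in XY. Lefty2, a Nodal antagonist, was among the genes that rose in XX. Fgf17 and Wnt3 were among those that rose in both, and after scaling 4 of the 9 rose in XY, where 24.5% of all genes did. Fgf8 rose by 4.33 in XY (limma adjusted p 5.17e-05), from at most 0.0502 TPM in XY mESC to 18.0, 20.8 and 20.2 TPM in EpiLC. It was at 0.152, 0.248 and 0.308 TPM in XX EpiLC and differed from XY EpiLC by -4.06 (limma adjusted p 0.000269). Wnt8a was at 3.81 to 4.93 TPM in XY EpiLC and 0.332 to 0.454 TPM in XX EpiLC. Wnt3, the Wnt ligand that starts the streak, had 3.55 to 4.75 TPM in XY and 2.80 to 3.91 TPM in XX EpiLC (log2 difference -0.26, limma adjusted p 0.531).

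The 3 streak genes that fell in XY were Cdx1, Cdx2 and Sp5, all known Wnt targets. Sp5 was at 14.5, 20.0 and 19.5 TPM in XY mESC and at 0.380, 0.509 and 0.575 TPM in XY EpiLC. It was at most 0.475 TPM in XX mESC and between 1.37 and 2.23 TPM in Tet3-/- mESC. Axin2, another Wnt target, was at 21.5, 26.1 and 31.7 TPM in XY mESC and at 1.37, 6.50 and 2.00 TPM in XX mESC (log2 difference -2.85, limma adjusted p 0.00021). In XY mESC, therefore, T was present beside Sp5, Axin2 and Cdx1. In XY EpiLC Sp5 and Cdx1 were low while T was higher on TPM, a change not called over all 19 libraries (1.65, limma adjusted p 0.134).

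Of 20 Nodal, BMP and Wnt signal components, all 20 were tested. In the XX transition 7 rose and 0 fell (median 0.56, against 0.14 for all genes, of which 19.2% rose). In XY 13 rose and 2 fell (median 1.17, against 0.54 for all genes, of which 41.1% rose). In Tet3-/- 6 rose and 1 fell (median 0.46, against -0.13 for all genes, of which 13.6% rose). After scaling the 3 transitions were more alike, with 10, 12 and 11 risen and 0, 3 and 1 fallen in XX, XY and Tet3-/-. The scaled medians were 0.37, 0.49 and 0.54, and 23%, 24.5% and 23.7% of all genes rose. XX EpiLC were lower than XY EpiLC in 14 and higher in 1 (median -0.92, against -0.59 for all genes, of which 42.0% were lower). After scaling they were lower in 5 and higher in 1 (median -0.22), where 15.1% of all genes were lower. The 5 that were still lower were Foxh1, Lef1, Acvr2b, Skil and Smad5, and the higher one was Bmp4. Foxh1, the SMAD partner, was at 50.2, 53.3 and 54.6 TPM in XY EpiLC and at 14.9, 16.8 and 19.5 TPM in XX EpiLC. Lef1 was at 6.98, 10.2 and 11.7 TPM against 0.199, 0.309 and 0.302 TPM. Nodal was at 36.5 to 43.5 TPM in XY EpiLC and 21.4 to 25.4 TPM in XX EpiLC, groups that did not overlap on TPM. The difference was not called (-0.76, limma adjusted p 0.173, against a median of -0.59 for all genes). Nodal was not called after scaling either, which divided XX EpiLC values by 0.882 to 1.03 and XY EpiLC values by 1.42 to 1.76.

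**Figure D4:**
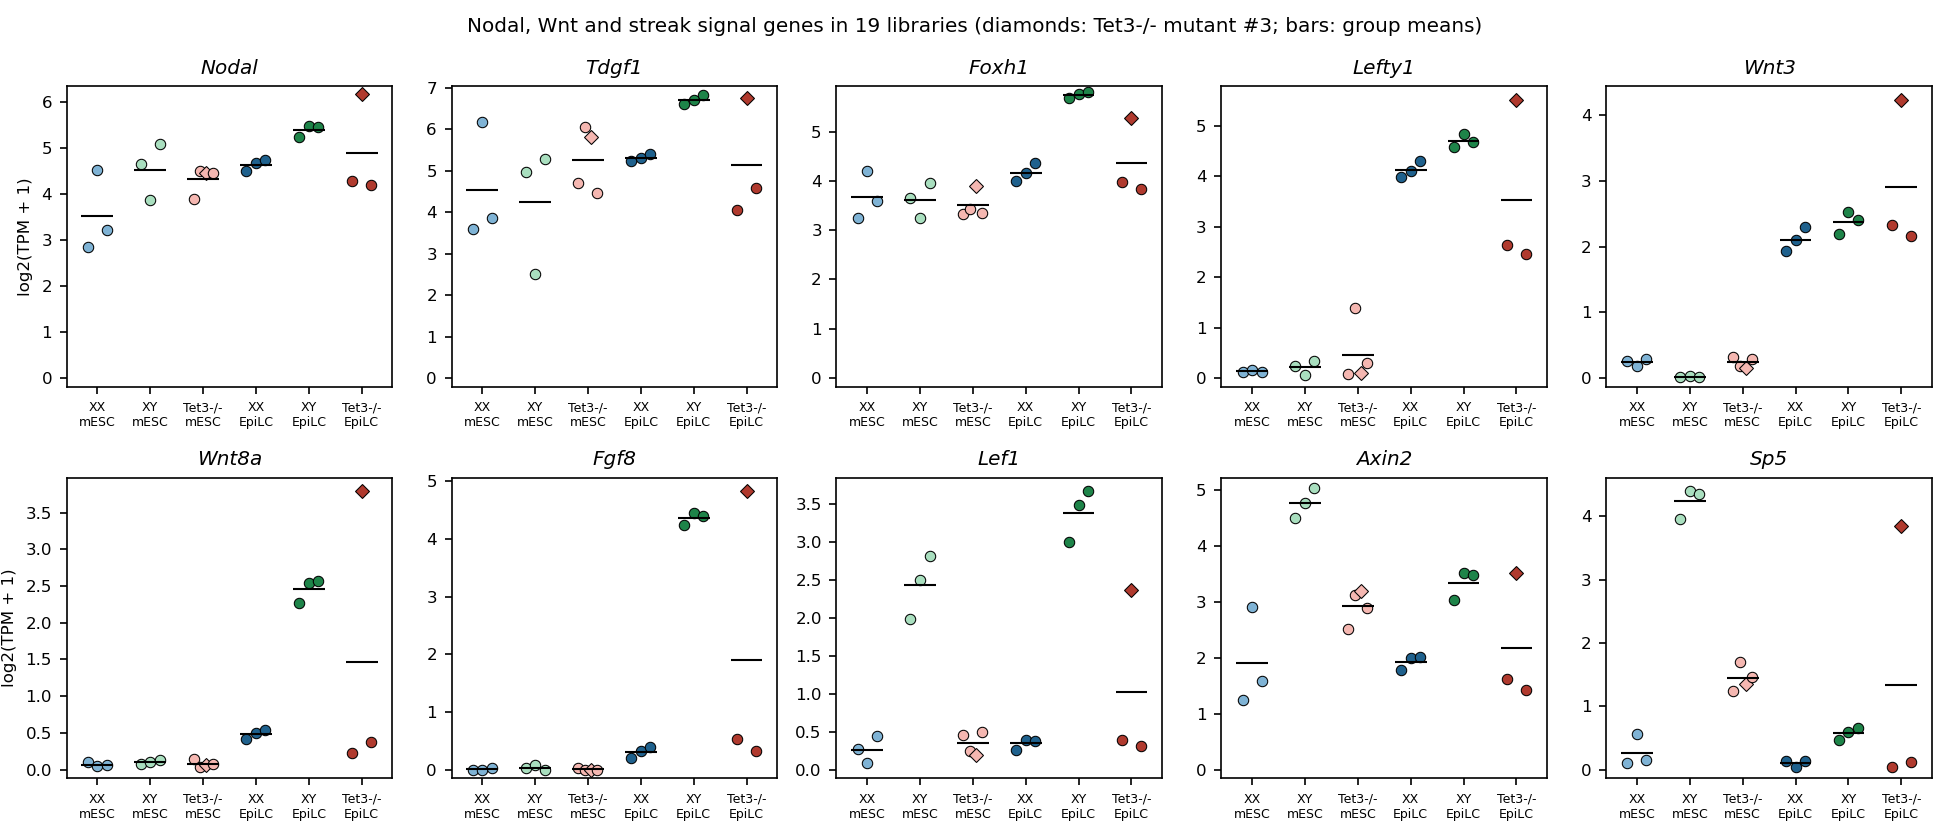
Levels of 10 signal and streak genes as log2(TPM + 1) in the 6 groups, chosen after their values were seen; points are libraries, diamonds are mutant #3 and bars are group means. Fgf8, Wnt8a and Lef1 are high in XY EpiLC and mutant #3 and low in XX EpiLC, while Sp5 and Axin2 are highest in XY mESC.

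Of 16 genes of definitive and anterior endoderm, 8 were tested. In the XX transition 3 rose and 1 fell (median 0.00, against 0.14 for all genes, of which 19.2% rose and 12.2% fell). In XY 4 rose and 0 fell (median 0.90, against 0.54), a share near the 41.1% of all genes that rose there, and after scaling 3 rose (median 0.29). Lefty1, a Nodal antagonist, and Epcam, an epithelial adhesion gene, rose in both, Trh in XX and Otx2 and Dkk1 in XY, where Dkk1 was not called after scaling (limma adjusted p 0.124). Otx2, a head organizer and epiblast factor, fell by 0.71 in XX (limma adjusted p 0.0398) and rose by 4.58 in XY (limma adjusted p 1.07e-10), from 16.3, 18.0 and 22.2 TPM in XX mESC and 1.77, 0.845 and 2.62 TPM in XY mESC. Dkk1 was at 2.00, 2.93 and 2.65 TPM in XY EpiLC, and no XX EpiLC library exceeded 0.0433 TPM (log2 difference -1.77, limma adjusted p 0.000157). Trh, a peptide hormone gene of anterior endoderm, was at 70.3, 12.3 and 85.7 TPM in XY mESC and at most 0.194 TPM in XX mESC.

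In mutant #3 many of these genes were higher too. Of the 9 tested streak genes 7 were higher than in #1 and #4 by at least 1 (median 2.46), of the 8 tested endoderm genes 5 (median 1.45) and of the 20 signal components 9 (median 0.97). After scaling the counts were 6, 4 and 5, and no gene of the 3 lists was lower by 1. Fgf8 was at 27.4 TPM in #3, against 0.442 and 0.256 TPM. Wnt3 was at 17.8 TPM, Wnt8a at 12.9 TPM, Lhx1 at 7.50 TPM and Evx1 at 2.86 TPM, each above every other library. Sp5 was at 13.4 TPM in #3 and below 0.6 TPM in the other 8 EpiLC libraries. Nodal was at 71.0 TPM, against 18.4 and 17.3 TPM, and its antagonist Lefty1 at 44.8 TPM, against 5.20 and 4.48 TPM. Fgf5, a formative marker, was at 43.7 TPM in #3, 3.61 and 3.58 TPM in #1 and #4 and 50.8 to 60.0 TPM in XY EpiLC.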

How the data were processed

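Per the labels' protocols, total RNA was depleted of ribosomal RNA and sequenced as stranded libraries. The deposited table held TPM for 140948 transcripts in 19 columns, each matched to its library by its header name, and each column summed to 1000000. The submitters' processing notes name Salmon 1.1.0, Trimmomatic 0.35, FastQC 0.11.7 and GRCm38, with no role or order given. TPM was summed per gene with GENCODE M21 (GRCm38), and unmatched transcripts (0.0454% to 0.215% of TPM) were left out. Depth is unknown and between 11128 and 13811 genes had at least 1 TPM per library. TPM is a share of the library, so a few abundant RNAs can shift all other genes.

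limma 3.58.1 (R 4.3.3; lmFit, contrasts.fit, eBayes with a trend) was run on log2(TPM + 1) with all libraries in 6 groups, after a filter of 1 TPM in 3 libraries. Benjamini-Hochberg adjustment was made per comparison. The fit was tested on simulated data. Named genes were the 10 members, Tet3, the listed genes and the 3 genes most like each tested member. The members and lists were chosen with earlier results of these data known. Some genes under this rule are not reported here. The same values were recomputed with a pseudocount of 0.1, without or with a stricter filter (5 TPM), with median-of-ratios scaling, quantile normalization, rescaling over protein-coding genes, a fit per comparison, eBayes with no trend, the replicate number as a block, libraries left out in turn and a fold limit of 1 (log2). Leaving out mutant #3, alone and with scaling, was added after the data were seen.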

Additional observations from a re-analysis of the deposited data

Results flagged for a closer look

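T in Tet3-/- mESC had a library far from the others. Mutant #2 stood at 0.626 TPM and the other 3 at 0.0736 to 0.163 TPM, so the gap to the nearest library was 0.838 of the range, above the limit of 0.829 for 4 libraries. Cer1 in Tet3-/- mESC had 0.00909 TPM in mutant #1 and 0 in the other 3, so a gap of 1 of the range follows from a single value above 0 and says nothing of chance. For T, 1 of the 10 sets of 4 libraries examined, chance alone gives such a gap in about 5% of sets.

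The XX and XY transitions differed in 3 members by an interaction test in limma. The log2 difference, XX minus XY, was -2.29 for Gsc (limma adjusted p 0.021), -2.19 for Foxa2 (limma adjusted p 0.0163) and -2.36 for Cer1 (limma adjusted p 0.000965). Gsc fell in XX and Foxa2 and Cer1 rose in XY, as the levels above show. Foxa2 and Cer1 passed the filter only through the libraries where they are high.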

How the results depend on the processing

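The 54 log2 fold changes of the 6 tested members were recomputed under each alternative. Leaving out single libraries kept 367 values on the same side of the threshold and in the same direction, made 29 lose and 5 gain a call, and turned 13. Under the other alternatives 480 were kept, 15 lost and 34 gained a call, and 20 turned. In no value that turned was the adjusted p under 0.05 in either fit.

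The number of members called in the XX transition was 2, and was 1 with no filter, 0 with the 5 TPM filter, where fewer members were tested, and 4 in the fit of the compared groups or without mutant #3, scaled or not. It was 1 to 2 with single libraries left out. In the XY transition it was 2, and was 0 with the 5 TPM filter, 5 in the fit of the compared groups and 4 without mutant #3. In the Tet3-/- transition it was 3, and was 1 with no filter, 1 with the 5 TPM filter, 0 in the fit of the compared groups and 1 without mutant #3, and 1 to 4 with single libraries left out. For XX against XY in mESC it was 3, and was 4 after scaling or without mutant #3, 0 with no filter, 1 with the 5 TPM filter and 0 to 1 with single libraries left out. In EpiLC it was 3, and was 1 with the 5 TPM filter and 5 in the fit of the compared groups or without mutant #3. For the XX minus XY difference it was 3, and was 0 with the 5 TPM filter and 5 without mutant #3, scaled or not. The cause was not tested unless named.

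Of values that turned, Foxa2 in the XX transition was -0.0094 after scaling, with or without mutant #3, and -0.00102 to 0.0266 with single libraries left out. Gsc in Tet3-/- against XX mESC was -0.0879 after scaling, -0.0895 with quantile normalization, -0.0284 over protein-coding genes, -0.0157 without mutant #3, -0.23 with both changes and -0.13 to 0.42 with single libraries left out. In EpiLC without mutant #3, Tet3-/- minus XX was -0.0460 for Eomes, -0.0147 for Foxa2 and -0.22 for Gata6 (-0.19 scaled). With single libraries left out these ran from -0.0460 to 1.29, -0.0147 to 1.29 and -0.22 to 0.53. Gata6 in XX against XY EpiLC was 0.11 after scaling, with or without mutant #3, 0.0052 with quantile normalization and 0.19 over protein-coding genes. Gata6 in the Tet3-/- transition was -0.66 to 0.10 with single libraries left out. The Tet3-/- minus XX difference of transitions without mutant #3 was -0.15 for T and -0.57 for Eomes (-0.17 scaled). With single libraries left out it was -0.10 to 2.74 for T, -0.49 to 0.85 for Eomes and -0.0358 to 1.25 for Gsc. The XX minus XY difference for T was 0.78 with a pseudocount of 0.1 and 0.23 over protein-coding genes.

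With the replicate number as a block, the calls were 2, 2 and 3 members in the XX, XY and Tet3-/- transitions, as without it. Deviations of libraries of the same number correlated at -0.0488 to 0.0695 in XX, -0.0426 to 0.243 in XY and -0.0271 to 0.319 in Tet3-/-, so the numbers were not taken to pair the libraries. TPM keeps no depth, so the counting error of levels under 1 TPM is unknown.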
